A study of Mus musculus with 6 samples.

Results

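The genes described are 6 members of the STAT family, Stat2, Stat3, Stat4, Stat5a, Stat5b and Stat6, taken by gene symbol from a table of 24421 rows. RNA was sequenced as single-end reads of 75 bp from group 2 innate lymphoid cells (ILC2), lymphocytes without antigen receptors that make type 2 cytokines. The cells came from the brains of C57BL/6 mice, were sorted by surface markers and were then kept for 2 weeks in culture in medium with fetal calf serum, stem cell factor and the interleukins IL-2, IL-7 and IL-33. The old group was 3 libraries from mice aged 20 to 22 months and the young group 3 libraries from mice aged 2 to 3 months. Both groups received the same cytokines and serum, and what is measured is RNA after culture and not RNA in the brain. Nothing in the labels says that libraries of the same age stem from different mice or cultures, nor of which sex the mice were. The p-values therefore weigh differences against the library-to-library spread, which may be technical.

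STAT proteins are transcription factors that wait in the cytoplasm. A cytokine brings its receptor chains together, the Janus kinases bound to those chains phosphorylate the receptor and then a STAT, and the phosphorylated STAT pairs with another and enters the nucleus to bind DNA. STAT5A and STAT5B relay IL-2, IL-7 and other cytokines that keep lymphocytes alive and dividing, and ILC2 need such signals. STAT6 relays IL-4 and IL-13, STAT3 relays IL-6, IL-10 and IL-21, STAT4 relays IL-12, and STAT2 joins IRF9 in the response to type I interferon. Activity depends on phosphorylation, which RNA levels do not show.

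Of the 6 STAT genes, Stat5a and Stat5b fell in old ILC2, to 36.7% and 45.0% of their young level. None of the 6 rose. Stat2, Stat3, Stat4 and Stat6 did not pass the test. All 6 passed the filter on low counts, as did 11805 genes in all. The 2 of 6 members that were called compare with 19.4% of all tested genes called in either direction and 8.14% called lower in old ILC2. The lower calls were 961 of 11805 genes, but 399 of 12209 without young library 1 and 480 of 12142 without young library 2.

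Libraries held 17314428 to 17796301 counts in old ILC2 and 16477157 to 20804291 counts in young ILC2. Levels below are CPM, counts brought to a common library size by TMM scaling, whose factors were 0.84 to 0.885 in old libraries and 1.12 to 1.18 in young libraries. All 14 ILC2 marker genes on the list had counts, and their summed level was 11900 to 14300 CPM in old libraries and 11400 to 14700 CPM in young libraries. Within that list Gata3 averaged 191 CPM in old ILC2 and 412 CPM in young ILC2, and Klrg1 1.45 CPM in old ILC2 and 86.6 CPM in young ILC2. Others were higher in old ILC2, Id2 at 6514 CPM in old ILC2 and 3740 CPM in young ILC2 and Thy1 at 143 CPM in old ILC2 and 65.0 CPM in young ILC2. Il5 averaged 3230 CPM in old ILC2 and 5335 CPM in young ILC2, and Il1rl1 276 CPM in old ILC2 and 488 CPM in young ILC2. Icos, Il17rb and Arg1 were also lower on average in old ILC2, and Areg and Il7r higher. Similar sums thus do not mean that each marker held its level. Apart from Gata3, the ILC2 markers named here were chosen after their values were seen. The T cell list summed to 6.83 to 14.7 CPM in old libraries and 6.79 to 13.1 CPM in young libraries, with Cd3e, Cd4, Cd8a and Cd5 at 0. Microglia and macrophage markers summed to 60.9 to 99.1 CPM in old libraries and 11.4 to 21.7 CPM in young libraries. In old libraries the sum was mostly Tmem119 (36.2 to 67.5 CPM, against 0 to 1.91 CPM in young libraries). P2ry12 was also higher, at 10.4 to 19.8 CPM in old libraries and 0.56 to 5.48 CPM in young libraries. Lyz2 averaged 9.4 CPM in old libraries and was 0 in each young library. Adgre1 went the other way, at 0 in each old library and 1.73 to 4.12 CPM in young libraries. P2ry12, Lyz2 and Adgre1 were chosen after their values were seen. Csf1r and C1qa were at 0 in all 6. The B cell list, all of it Cd79b, summed to 33.2 to 58.3 CPM in old libraries and 13.7 to 22.9 CPM in young libraries. Mast cell and basophil markers summed to 188 to 325 CPM in old libraries and 230 to 282 CPM in young libraries, mostly Mcpt8, with Mcpt4, Fcer1a and Ms4a2 at 0. Lists for NK cells and ILC1, ILC3, dendritic, neural and erythroid cells summed to at most 13.7 CPM in any library. The part of these markers in the STAT results was not tested. In bulk RNA, fewer cells of a type and less RNA per cell cannot be told apart.

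Stat5a, Stat5b and Stat3 lie side by side on mouse chromosome 11 (GRCm38). Stat5b spans 100780731 to 100850724 on the minus strand, Stat5a 100859351 to 100885169 on the plus strand and Stat3 100885098 to 100939540 on the minus strand. Stat5a and Stat5b start head to head, 8626 bases apart, and the ends of Stat5a and Stat3 overlap by 72 bases. RefSeq gives 2 starts for Stat5a and 2 for Stat5b. The windows printed below are at the downstream start of each gene, inside the spans given above, and are not the head-to-head pair. The best local alignment of the windows at the 2 upstream starts had 24 columns, 19 of them identical. Among the 4 pairs of their promoter windows (250 bases before to 50 after a start), the pair printed here had the best-scoring local alignment, and it is shown because these are the members that fell. Capitals mark the aligned stretch, in which 83 of 104 columns were identical (79.8%), running from base -103 to -2 relative to the Stat5a start and from base -94 to 8 relative to the Stat5b start. The Stat5a window is chr11:100860234-100860533 on the plus strand and the Stat5b window is chr11:100822521-100822820 on the minus strand, both 5′ to 3′ from RefSeq on GRCm38.p6.
Stat5a: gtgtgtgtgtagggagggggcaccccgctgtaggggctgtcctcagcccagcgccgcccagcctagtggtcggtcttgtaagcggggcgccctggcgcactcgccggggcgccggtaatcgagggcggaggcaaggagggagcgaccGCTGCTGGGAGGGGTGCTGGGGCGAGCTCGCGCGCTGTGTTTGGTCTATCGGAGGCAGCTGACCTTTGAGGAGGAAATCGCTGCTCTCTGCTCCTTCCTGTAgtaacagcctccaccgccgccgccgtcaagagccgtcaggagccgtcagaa
Stat5b: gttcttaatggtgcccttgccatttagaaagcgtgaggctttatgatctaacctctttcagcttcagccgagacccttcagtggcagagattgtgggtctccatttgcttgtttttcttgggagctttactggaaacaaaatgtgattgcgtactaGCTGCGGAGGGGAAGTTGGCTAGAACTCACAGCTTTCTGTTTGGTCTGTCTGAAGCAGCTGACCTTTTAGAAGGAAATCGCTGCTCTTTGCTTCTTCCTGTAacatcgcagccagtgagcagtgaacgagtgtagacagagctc
A shared stretch of letters is a description of these windows, and its part in the levels below was not tested.

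STAT5A is the member first described as a mammary gland factor driven by prolactin, and in lymphocytes it acts together with STAT5B. Stat5a had 28.2, 32.9 and 18.6 CPM in old libraries 1, 2 and 3, against 70.5, 97.1 and 49.5 CPM in young libraries 1, 2 and 3. All 3 old libraries lay below all 3 young libraries, which was the case for 18.8% of tested genes. The means were 26.6 ± 7.27 CPM in old ILC2 and 72.4 ± 23.8 CPM in young ILC2 (SD, n = 3 each). Stat5a fell by 1.45 on the log2 scale (SE 0.31, 95% interval -2.05 to -0.84), which is 2.73-fold lower, with an adjusted p of 0.00761 in edgeR's quasi-likelihood test. A lower change than that of Stat5a was found in 9.0% of tested genes. Its call was kept in each of 17 alternative analyses, with log2 changes of -1.88 to -1.16.

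STAT5B, encoded by the neighbouring gene, shares most of its protein sequence with STAT5A and is the form known for relaying growth hormone in liver. Stat5b had 31.9, 55.9 and 29.3 CPM in old libraries, against 88.4, 96.2 and 75.4 CPM in young libraries. The groups did not overlap, and old library 2 stood above the other old libraries. Stat5b averaged 39.0 ± 14.7 CPM in old ILC2 and 86.7 ± 10.5 CPM in young ILC2 (SD, n = 3 each). It fell by 1.15 on the log2 scale (SE 0.27, 95% interval -1.68 to -0.62), or 2.22-fold, with an adjusted p of 0.0128 in edgeR. This call was less stable than that of Stat5a. With offsets for transcript length and GC content the log2 change of Stat5b was -0.76 with an adjusted p of 0.0711 in edgeR, whereas Stat5a stood at -1.31 with an adjusted p of 0.00423. Without young library 1 the Stat5b change was -1.12 with an adjusted p of 0.0539 in edgeR, and without young library 2 it was -1.06 with an adjusted p of 0.0514.

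**Figure D1:**
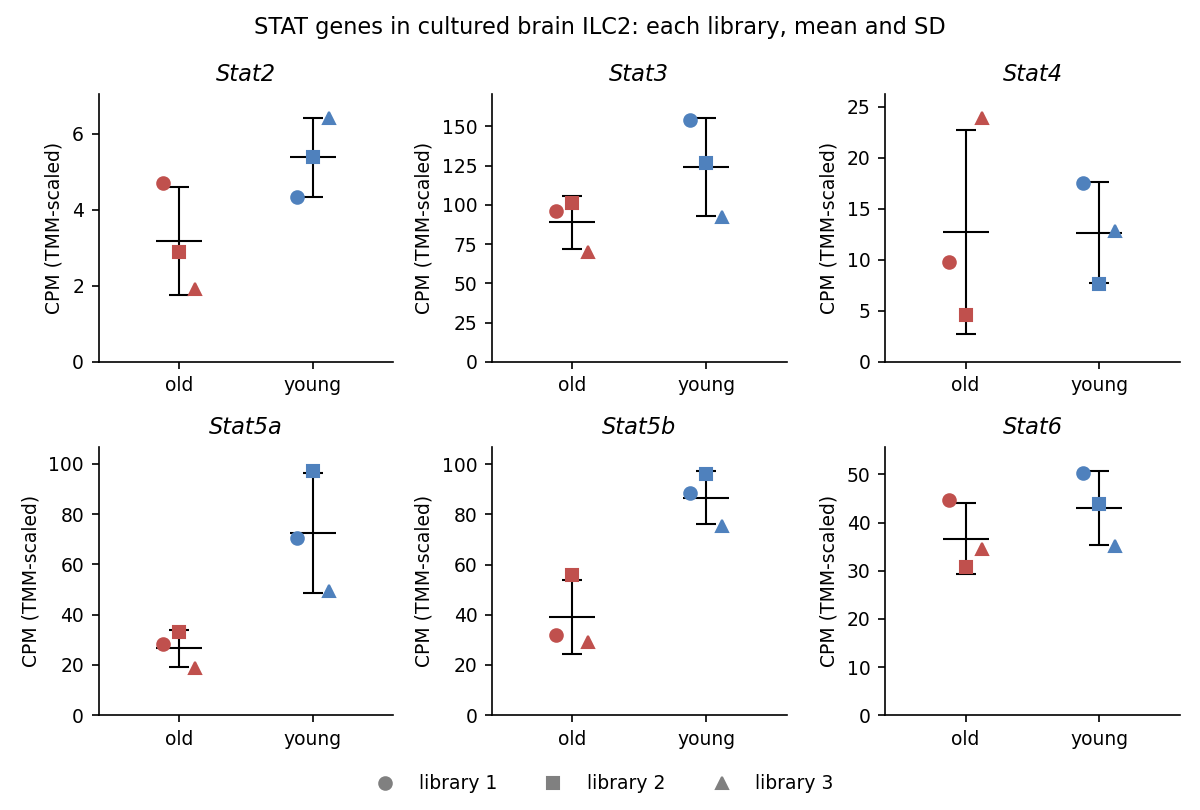
Level of each STAT gene in CPM after TMM scaling, one panel per gene, with each library as a symbol and the group mean and SD as lines (old and young, n = 3 each). Stat5a and Stat5b show 3 old points below 3 young points, and the other 4 genes overlap between the groups.

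Stat5a and Stat5b share sequence, so the balance between them was checked. Of the stretches of 75 bases in the longest coding transcript, 387 were common to both genes, 10.15% of those of Stat5a and 7.53% of those of Stat5b. The longest coding transcripts of Stat2, Stat3 and Stat6 shared none with another gene. How reads from the shared stretches were counted is not given in the sources used here. The ratio of Stat5a to Stat5b counts was 0.884, 0.588 and 0.636 in old libraries and 0.798, 1.01 and 0.657 in young libraries. On the log2 scale the ratio averaged -0.53 ± 0.31 in old ILC2 and -0.31 ± 0.31 in young ILC2 (SD, n = 3 each), a difference of -0.23 with a 2-sided exact permutation p of 0.4. With 3 libraries against 3 the smallest p that test can give is 0.1, so this test could not pass 0.05 at any size of difference. Both genes together had 60.1, 88.8 and 47.9 CPM in old libraries, against 159, 193 and 125 CPM in young libraries, so the combined old mean was 41.3% of the young mean.

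Stat3, the neighbour of Stat5a, encodes the STAT of IL-6-type cytokines. Stat3 had 96.3, 101 and 69.8 CPM in old libraries, against 154, 127 and 92.0 CPM in young libraries. Young library 3 lay within the old range, so the groups overlapped. The means were 89.0 ± 16.9 CPM in old ILC2 and 125 ± 31.3 CPM in young ILC2 (SD, n = 3 each). Its log2 change was -0.48 ± 0.23 (SE), with a 95% interval of -0.93 to -0.04 and an adjusted p of 0.175 in edgeR. That interval is a normal approximation, and the unadjusted p from edgeR was 0.0576. The size of the Stat3 difference depended on the analysis, at -0.03 with offsets for transcript length and GC content and at -0.91 with scaling by library totals alone, where edgeR's adjusted p was 0.0165.

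Stat6, on chromosome 10 from 127642986 to 127660957 on the plus strand, encodes the factor that relays IL-4 and IL-13, and ILC2 themselves make IL-13. Stat6 had 44.8, 30.7 and 34.6 CPM in old libraries, against 50.3, 43.8 and 35.1 CPM in young libraries. The groups overlapped, and the log2 change was -0.23 ± 0.26 (SE) with an adjusted p of 0.614 in edgeR. Its 95% interval ran from -0.75 to 0.29. A fall the size of that of Stat5a or Stat5b lies outside this interval.

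Stat4, on chromosome 1 from 51987148 to 52107189 on the plus strand, encodes the factor that relays IL-12 and drives interferon gamma in other lymphocytes. Stat4 had 9.75, 4.58 and 23.9 CPM in old libraries, against 17.5, 7.66 and 12.8 CPM in young libraries. Old library 3 was the highest and old library 2 the lowest of all 6, a spread of 5.21-fold among old libraries and 2.29-fold among young libraries. The mean was 12.7 CPM in both groups, with an SD of 78.5% of the mean in old ILC2 and 39.0% in young ILC2 (n = 3 each). The log2 change of 0.01 had a 95% interval of -1.18 to 1.20 and an adjusted p of 0.992 in edgeR, so its direction was not resolved. Without old library 3 it was -0.82 and with scaling by library totals alone -0.39. Of the exon bases of Stat4, 26.68% overlap Gm28177, an annotated transcript on the same strand, and how reads there were assigned is not given in the sources used here.

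Stat2, on chromosome 10 from 128270559 to 128292849 on the plus strand, encodes the interferon-response STAT that binds IRF9. It was the lowest of the 6, with 71, 43 and 30 counts in old libraries and 83, 132 and 126 counts in young libraries. In CPM it had 4.71, 2.9 and 1.91 in old libraries, against 4.33, 5.38 and 6.41 in young libraries. Old library 1 lay above young library 1, so the groups overlapped. The log2 change was -0.76 ± 0.78 (SE), with an interval of -2.28 to 0.76 and an adjusted p of 0.567 in edgeR. At this depth the interval held both a fall as large as that of Stat5a and a modest rise.

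**Figure D2:**
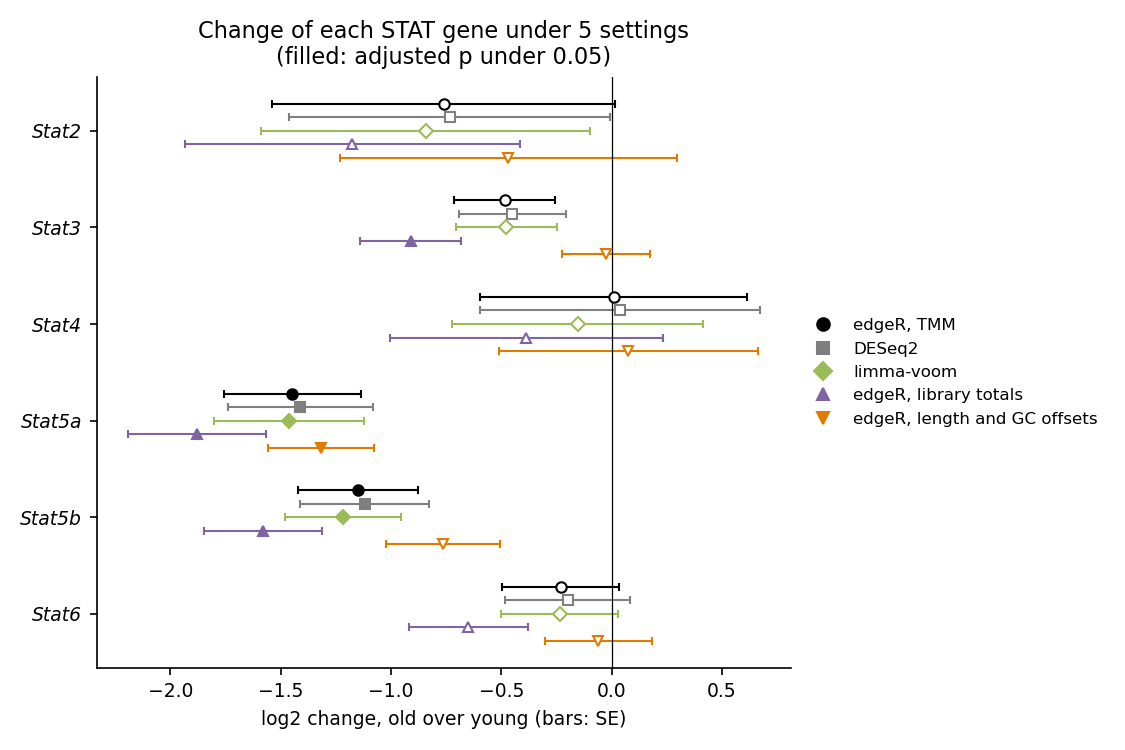
Log2 change of each STAT gene in old against young ILC2 under 5 analyses, with bars for the SE and filled symbols for an adjusted p under 0.05. Stat5a is filled in each analysis, Stat5b in each except that with length and GC offsets (-0.76), Stat3 only with library totals (-0.91), and Stat4 lies on both sides of 0.

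The median tested gene had a log2 change of -0.101, so relative to it Stat5a stood at -1.35, Stat5b at -1.05, Stat2 at -0.66, Stat3 at -0.38, Stat6 at -0.13 and Stat4 at 0.11. With library totals alone that median was -0.517, and calls over all genes split into 717 higher and 2381 lower, against 1325 higher and 961 lower with TMM scaling. Change also went with transcript length over all genes. In 5 groups of equal size by transcript length, the median log2 change was 0.49, 0.02, -0.20, -0.35 and -0.48, shortest to longest. The share of genes called lower ran from 3.72% in the shortest group to 11.8% in the longest. Stat4 was in the middle group, Stat2, Stat5a and Stat6 in the next, and Stat3 and Stat5b in the longest. The offsets for length and GC content moved Stat3 and Stat5b by more than their standard errors and Stat5a by less than its own. Whether the length pattern has a part in the STAT changes was not tested beyond these offsets.

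**Figure D3:**
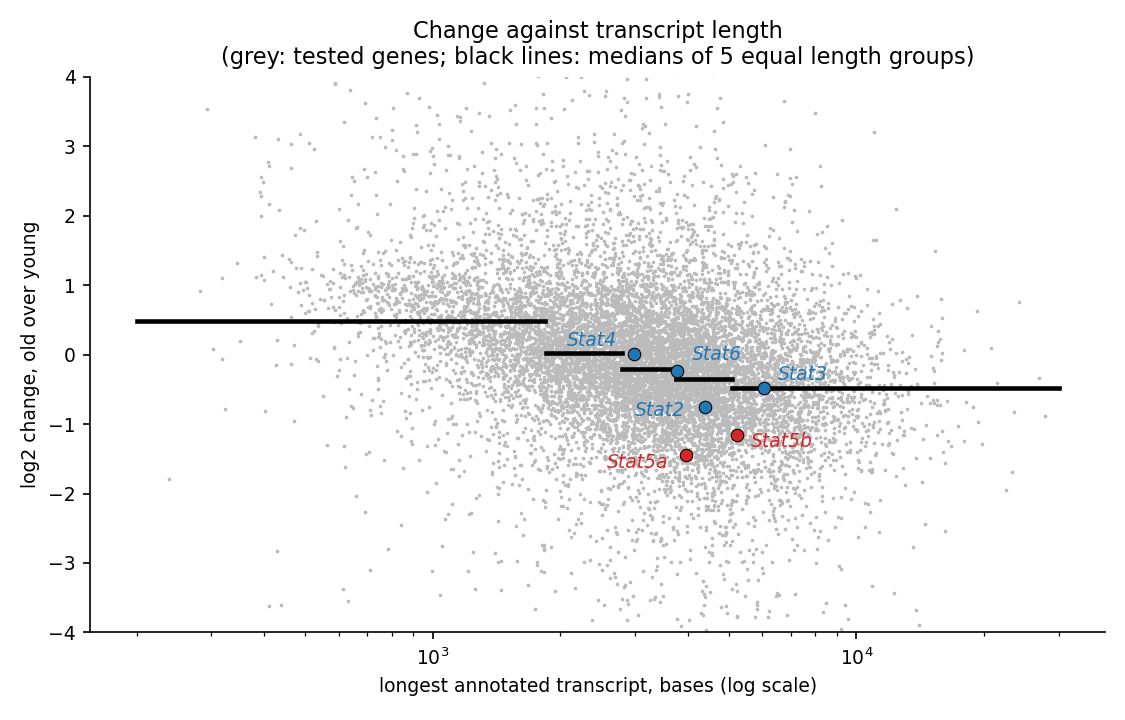
Log2 change in old against young ILC2 (vertical axis) against transcript length (horizontal log axis) for 11351 tested genes in grey (354 more lie beyond the axes), with the medians of 5 length groups as black lines and the STAT genes as named points. The lines descend, with 0.49 for the shortest genes and -0.48 for the longest, and Stat5a at -1.45 and Stat5b at -1.15 lie below them.

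Levels can be compared between genes only per length, so counts were also expressed as CPM per kilobase of annotated exon. On this scale Stat3 was highest in old ILC2 at 9.35 ± 1.77, followed by Stat6 at 8.33 ± 1.65, Stat5b at 7.05 ± 2.65, Stat5a at 3.72 ± 1.02, Stat4 at 3.29 ± 2.58 and Stat2 at 0.535 ± 0.24 (SD, n = 3). In young ILC2 Stat5b came first at 15.6 ± 1.9, followed by Stat3 at 13.1 ± 3.29, Stat5a at 10.1 ± 3.34, Stat6 at 9.78 ± 1.73, Stat4 at 3.27 ± 1.28 and Stat2 at 0.907 ± 0.175 (SD, n = 3). Most neighbours in these orders overlapped. In old ILC2 the separate neighbours were Stat5b above Stat5a and Stat4 above Stat2, and in young ILC2 they were Stat6 above Stat4 and Stat4 above Stat2. The order within the upper genes depended on the length used. Per kilobase of the longest transcript, Stat3 led in young ILC2 at 20.6, with Stat5a at 18.3 and Stat5b at 16.6 CPM per kilobase, and in old ILC2 the ranges of Stat5a and Stat5b overlapped.

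The 6 genes together had 33.3, 34.0 and 29.6 CPM per kilobase of exon in old libraries, against 58.7, 57.2 and 42.6 in young libraries. Each old library lay below each young one, and the STAT5 genes made up most of that gap. Of the summed level, Stat5b took 21.6 ± 7.02% in old ILC2 and 29.8 ± 2.46% in young ILC2, and Stat5a took 11.4 ± 2.41% in old ILC2 and 19.0 ± 4.18% in young ILC2 (SD, n = 3 each). The share of Stat6 was 25.9 ± 5.05% in old ILC2 and 18.5 ± 1.04% in young ILC2, and that of Stat3 28.8 ± 3.51% in old ILC2 and 24.6 ± 2.66% in young ILC2. Because shares sum to the whole, a gene that held its level gains share where the others lose it. Stat4 took 20.9% of the sum in old library 3, where its count was highest.

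**Figure D4:**
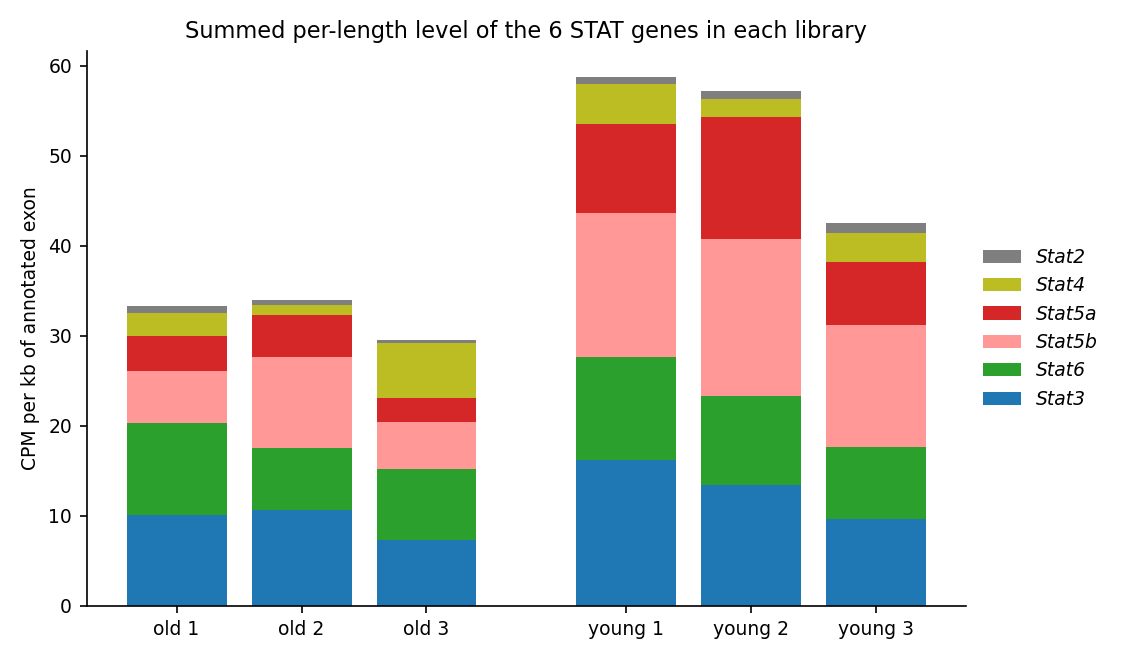
Level of the STAT genes per kilobase of exon in each library, stacked by gene, old libraries before young ones. Old libraries reach 29.6 to 34.0 and young libraries 42.6 to 58.7 CPM per kilobase.

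Ratios between members do not depend on library scaling, and all 15 pairs were compared. The ratios were taken without the length and GC offsets, which moved the members by different amounts, so they can carry the length pattern. In 3 pairs the old and young libraries did not overlap, or 3 of 15, against 36.4% of all pairs among 10390 tested genes with counts in each library. The log2 ratio of Stat3 to Stat5a was 1.77 ± 0.14 in old ILC2 and 0.81 ± 0.38 in young ILC2, and that of Stat3 to Stat5b was 1.23 ± 0.37 in old ILC2 and 0.50 ± 0.27 in young ILC2 (SD, n = 3 each). The log2 ratio of Stat5a to Stat6 was -0.49 ± 0.52 in old ILC2 and 0.71 ± 0.38 in young ILC2. Each of these had a 2-sided exact permutation p of 0.1, the smallest that 3 libraries against 3 can give, and 0.5 after adjustment over the 15 pairs. The log2 ratio of Stat5b to Stat6 differed by -0.97 with overlap between the groups (exact permutation p = 0.2).

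The profile of each STAT gene over the 6 libraries was set beside those of 7473 other genes by the root mean square difference of centred log2 CPM. Nearest to Stat5a were Fem1a at 0.066, Phrf1 at 0.078 and Bag3 at 0.14, and among the nearest to Stat5b were Zc3hav1 at 0.132 and Tnfrsf1b at 0.136. Stat3 was closest to Ecm1 at 0.077, Supt6 at 0.088 and Agpat6 at 0.101. For Stat6 the nearest were Incenp at 0.048, Slc20a1 at 0.05 and Zbtb7a at 0.073, and for Stat2 they were Itga4 at 0.149, Ldlrad4 at 0.152 and Smim10l1 at 0.159. The uneven profile of Stat4 had no match as close, with Taf1 at 0.197, Ngly1 at 0.257 and Trub1 at 0.268. Among the members, Stat3 and Stat6 differed by 0.26 and Stat5a and Stat5b by 0.277, while Stat4 lay 0.74 to 1.234 from the others.

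RefSeq held 9 promoter windows for the 6 genes, and 4 motifs were searched on both strands. The gamma-activated site, TTCNNNGAA, is the classic STAT element and was found in none of the 9 windows, against 8.3% of 32851 windows of all genes. No match says only that these letters are not in these windows. The spacing that STAT6 also binds has 1 more base between TTC and GAA. This form occurred in 6.95% of all windows and in Stat2, as TTCCCTAGAA at base -210, which reads as a match on both strands. The core of the interferon-stimulated response element, bound by STAT2 with its partners, is GAAA, any pair of bases and GAAA. It was present in 3.44% of all windows, in Stat2 as TTTCAGTTTC at base -222 on the minus strand, and in a window of Stat4 as GAAAGTGAAA at base -97. The GC box GGGCGG, in 35.7% of all windows, occurred 3 times in the Stat5b window at the upstream start, 2 times in the Stat5a window printed above, 2 times in Stat2 and 1 time in Stat3.

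The genes around the STATs were taken from lists of receptor chains, Janus kinases, inhibitors, nuclear partners and known targets. Of 121 listed genes 97 were tested, 15 rose and 13 fell, so 28.9% were called, against 19.4% of all tested genes (11.2% higher and 8.14% lower), with a median log2 change of -0.13 against -0.10 over all tested genes. Of these 28 calls, 13 were kept without each library in turn and 10 in all 17 alternatives. Those 10 were Csf2rb, Ifngr1, Ifngr2, Il9, Gata3, Ifng, Fos, Vegfa, Isg20 and Ifi27l2a. Some genes are on more than one list. Counts under other analyses, given below, are to be read beside the calls over all genes there. With library totals alone these were 717 higher and 2381 lower of 11805. With the length and GC offsets they were 1012 higher and 953 lower of 11805. With DESeq2 they were 1738 higher and 1332 lower of 15262.

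Upstream of the STATs, 2 receptor chains rose and 5 fell of 24 tested, or 29.2% against 19.4% of all tested genes, with a median log2 change of -0.25. None was called higher without old library 1, old library 2 or young library 1, where 5, 4 and 3 were called lower, nor with library totals alone, where 10 were called lower. Csf2rb, the chain shared by the receptors of IL-3, IL-5 and GM-CSF, which signal largely through STAT5, had 11.6, 22.4 and 17.2 CPM in old libraries, against 99.4, 136 and 73.2 CPM in young libraries. Csf2rb fell by 2.59 on the log2 scale with an SE of 0.31 (edgeR, adjusted p = 0.000278). Both chains of the interferon gamma receptor also fell, Ifngr1 by 1.79 and Ifngr2 by 1.37 on the log2 scale (adjusted p = 0.0106 and 0.00442 in edgeR). Il21r, the chain specific to IL-21, rose by 0.90 (adjusted p = 0.0157 in edgeR), a call lost without old library 1, old library 2 or young library 1 (adjusted p 0.0502, 0.0529 and 0.0566) and with library totals alone (log2 0.47, adjusted p 0.148). Il2ra, Il2rb, Il7r and Il2rg, chains of the receptors for IL-2 and IL-7 in the medium, were chosen after their values were seen. Il2ra averaged 1460 CPM in old ILC2 and 1958 CPM in young ILC2 and fell by 0.42 (adjusted p = 0.0251 in edgeR), a call lost with the length and GC offsets (log2 -0.16, adjusted p 0.395), with the replicate block (adjusted p 0.0645), and without old library 1, old library 2, young library 1 or young library 2 (adjusted p 0.0767, 0.106, 0.155 and 0.0861). Il7r had a log2 change of 0.32 and Il2rg of -0.07, and neither passed the test (adjusted p = 0.343 and 0.755 in edgeR). Il2rb averaged 528 CPM in old ILC2 and 437 CPM in young ILC2, with a log2 change of 0.27 (adjusted p = 0.269 in edgeR). With the length and GC offsets Il2rb was called higher (log2 0.51, adjusted p 0.0128 in edgeR).

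Of the 4 Janus kinases, 2 fell and none rose, against 8.14% of all tested genes called lower, with a median log2 change of -0.90. Jak1, which pairs with nearly all lymphocyte cytokine receptors, had 98.1, 101 and 95.8 CPM in old libraries, against 193, 218 and 165 CPM in young libraries. Its log2 change was -0.97 ± 0.17 (SE, adjusted p = 0.00211 in edgeR), and it fell by 0.50 with the length and GC offsets (adjusted p = 0.0426), where the replicate block added to the offsets gave the same change with an adjusted p of 0.0554. Tyk2, a kinase of the interferon and IL-12 receptors, fell by 2.09 (SE 0.60, adjusted p = 0.0316 in edgeR), and that call was lost with the offsets (log2 -1.75, adjusted p 0.067) and without old library 1, old library 2, young library 1 or young library 2 (adjusted p 0.0568, 0.0838, 0.0617 and 0.174), so that 1 Janus kinase was called without old library 2, young library 1 or young library 2. Jak2 and Jak3 stood at -0.53 and -0.82 and did not pass (adjusted p = 0.156 and 0.069 in edgeR). With the length and GC offsets Jak3 was called lower (log2 -0.73, adjusted p 0.0292 in edgeR) and Jak2 was not (log2 -0.17, adjusted p 0.712). DESeq2 called 3 Janus kinases lower, where 1332 of 15262 genes were called lower. With library totals alone edgeR called 4, where 2381 of 11805 genes were called lower.

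Of 18 inhibitors tested, 1 rose and none fell, or 5.56% against 19.4% of all tested genes. With library totals alone none was called higher and 6 lower. With the length and GC offsets 3 were called higher and 2 lower, and with DESeq2 2 higher and 2 lower. Socs3, a feedback inhibitor of Janus kinases that STAT3 induces, had 310, 289 and 225 CPM in old libraries, against 173, 192 and 94.4 CPM in young libraries. Its log2 change was 0.84 ± 0.24 (SE, adjusted p = 0.0333 in edgeR), and the call was lost without old library 1, old library 2 or young library 1 (adjusted p 0.106, 0.099 and 0.0625) and with scaling by library totals alone (log2 0.42, adjusted p 0.253). Of 7 nuclear partners, 1 rose and 1 fell, or 28.6% against 19.4% of all tested genes, with a median log2 change of -0.96. Ndufa13, also described as an inhibitor of STAT3, rose by 0.82 and Crebbp, a histone acetyltransferase, fell by 1.69 on the log2 scale (adjusted p = 0.00188 and 0.0348 in edgeR). Neither call was kept with the length and GC offsets (log2 0.04 and -1.07, adjusted p 0.887 and 0.166). The Crebbp call was also lost without each library except old library 1, with adjusted p up to 0.147, and with the replicate block (adjusted p 0.0721).

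Of 19 STAT5 target genes, 3 rose and 4 fell, or 36.8% against 19.4% of all tested genes, with a median log2 change of 0.07. With library totals alone 1 was called higher and 9 lower, and without old library 2 or young library 1 none was called higher and 3 lower. Il9, a type 2 cytokine gene, had 13.9, 2.29 and 6.86 CPM in old libraries, against 282, 112 and 267 CPM in young libraries. Its log2 change was -4.84 ± 0.57 (SE, adjusted p = 0.000244 in edgeR). Gzmb, which encodes granzyme B, fell by 1.91 (adjusted p = 0.00832 in edgeR, and 0.0518 without young library 2), while Prf1, which encodes perforin, rose by 2.16 (adjusted p = 0.0198 in edgeR). The Prf1 call was lost without old library 1, old library 2 or young library 1 (adjusted p 0.0814, 0.0502 and 0.0759), with the replicate block (adjusted p 0.0583) and with the block and the length and GC offsets (adjusted p 0.0704). Ccnd2, a cyclin of G1 phase, fell by 0.74 (adjusted p = 0.00314 in edgeR), and stood at -0.17 with the length and GC offsets (adjusted p 0.383). The other genes of this list called higher were Socs3, by 0.84, and Pim2, by 0.75 (adjusted p = 0.0333 and 0.0252 in edgeR). The Pim2 call was lost with the length and GC offsets (log2 0.44, adjusted p 0.103) and with library totals alone (log2 0.33, adjusted p 0.263). It was also lost without old library 1, old library 2, young library 1 or young library 3 (adjusted p up to 0.111). Pim2, and Cish, Socs1 and Socs2, feedback inhibitors induced by STAT5, were chosen after their values were seen. The log2 changes of Cish, Socs1 and Socs2 were -0.11, -0.03 and 0.29, and none passed the test (adjusted p = 0.684, 0.892 and 0.172 in edgeR). With the length and GC offsets Socs2 stood at 0.59 with an adjusted p of 0.00608.

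Of 17 STAT3 target genes, 6 rose and none fell, or 35.3% against 19.4% of all tested genes (11.2% higher). The median log2 change of the list was 0.56. The count depended on single libraries, on scaling and on the length and GC offsets. It was 3 higher without old library 1 and 4 higher without young library 2. Without old library 2 or without young library 1 it was 2 higher. With library totals alone 2 were called higher and 3 lower. With the length and GC offsets 4 were called higher and 1 lower, and with the replicate block 4 higher and none lower. Fos, a subunit of AP-1, had 67.4, 94.2 and 81.7 CPM in old libraries, against 15.9, 20.3 and 16.3 CPM in young libraries. Vegfa, a growth factor of blood vessels, had 70.3, 93.0 and 40.4 CPM in old libraries, against 10.3, 9.90 and 10.6 CPM in young libraries. They rose by 2.21 and 2.72 on the log2 scale (adjusted p = 0.000145 and 0.000289 in edgeR). Junb and Batf, further AP-1 members, rose by 0.59 and 0.67 (adjusted p = 0.0219 and 0.0273 in edgeR), and with the length and GC offsets stood at 0.03 and -0.18 (adjusted p 0.891 and 0.487). Both were also lost with library totals alone (log2 0.16 and 0.26, adjusted p 0.471 and 0.297) and without old library 1, old library 2 or young library 1, Batf without young library 2 and with the replicate block as well (adjusted p leaving out libraries up to 0.099 for Junb and 0.124 for Batf, and 0.0718 for Batf with the block). Hif1a, the hypoxia-response factor, and Socs3 were the remaining called genes. Hif1a, chosen after its values were seen, rose by 0.62 (adjusted p = 0.0278 in edgeR), and was lost with library totals alone, with the replicate block, and without old library 1, old library 2, young library 1 or young library 2 (adjusted p 0.407, 0.055, 0.0815, 0.125, 0.0891 and 0.0845).

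Of the targets of the other STATs, 7 STAT6 genes were tested and 1 rose and 1 fell, or 28.6% against 19.4% of all tested genes. With library totals alone 4 STAT6 genes were called lower. Gata3, the transcription factor of type 2 lymphocytes, had 191, 167 and 215 CPM in old libraries, against 437, 448 and 351 CPM in young libraries, and its log2 change was -1.11 ± 0.16 (SE, adjusted p = 7.00e-04 in edgeR). Il4 rose by 0.58 (adjusted p = 0.0327 in edgeR), but stood at -0.42 with the length and GC offsets (adjusted p 0.133), and the call was lost without each library except young library 3 (adjusted p up to 0.105), with library totals alone (log2 0.16, adjusted p 0.496) and with the replicate block (adjusted p 0.0503). Of 7 STAT4 genes, 1 rose and 1 fell, also 28.6% against 19.4% of all tested genes. Ifng, which encodes interferon gamma, had 0 counts in the 3 old libraries together and 464 counts in the 3 young libraries. It was at least 112-fold lower in old ILC2, taking a floor of 3 counts over the group, and its exons overlap Gm49751 on the same strand. Il18r1 rose by 1.36 (adjusted p = 0.0197 in edgeR), a call lost without old library 1, young library 1 or young library 2 (adjusted p 0.0692, 0.0863 and 0.0698) or with library totals alone (log2 0.96, adjusted p 0.0669).

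Of 17 interferon-stimulated genes that STAT2 and IRF9 control, 8 had enough counts to be tested. Of these 8, 2 rose and none fell, against 19.4% of all tested genes called. The count of higher calls was 2 in each alternative, but that of lower calls varied. It was 1 with library totals alone, without old library 3, without the low-count filter, and with the length and GC offsets with or without the replicate block. With the offsets alone the gene called lower was Bst2 (log2 -0.69, adjusted p 0.00485 in edgeR). DESeq2, run without the low-count filter, called 2 lower, where 1332 of 15262 genes were called lower. Listed genes at 0 counts in all libraries, such as Ifit3 and Oas2, could not be tested. Isg20, an exonuclease gene, had 90.0, 93.9 and 86.9 CPM in old libraries, against 10.4, 10.7 and 15.8 CPM in young libraries. Its log2 change was 2.87 ± 0.25 (SE, adjusted p = 3.35e-05 in edgeR). Ifi27l2a, a gene induced by type I interferon, rose by 3.03 ± 0.30 (SE, adjusted p = 6.79e-05 in edgeR). Usp18 and Rsad2, also induced by interferon and chosen after their values were seen, did not pass the filter. Usp18 had 0 counts in old and 101 counts in young libraries. Rsad2 had 0 counts in old libraries and 53 counts in young libraries, all of them in young library 2.

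**Figure D5:**
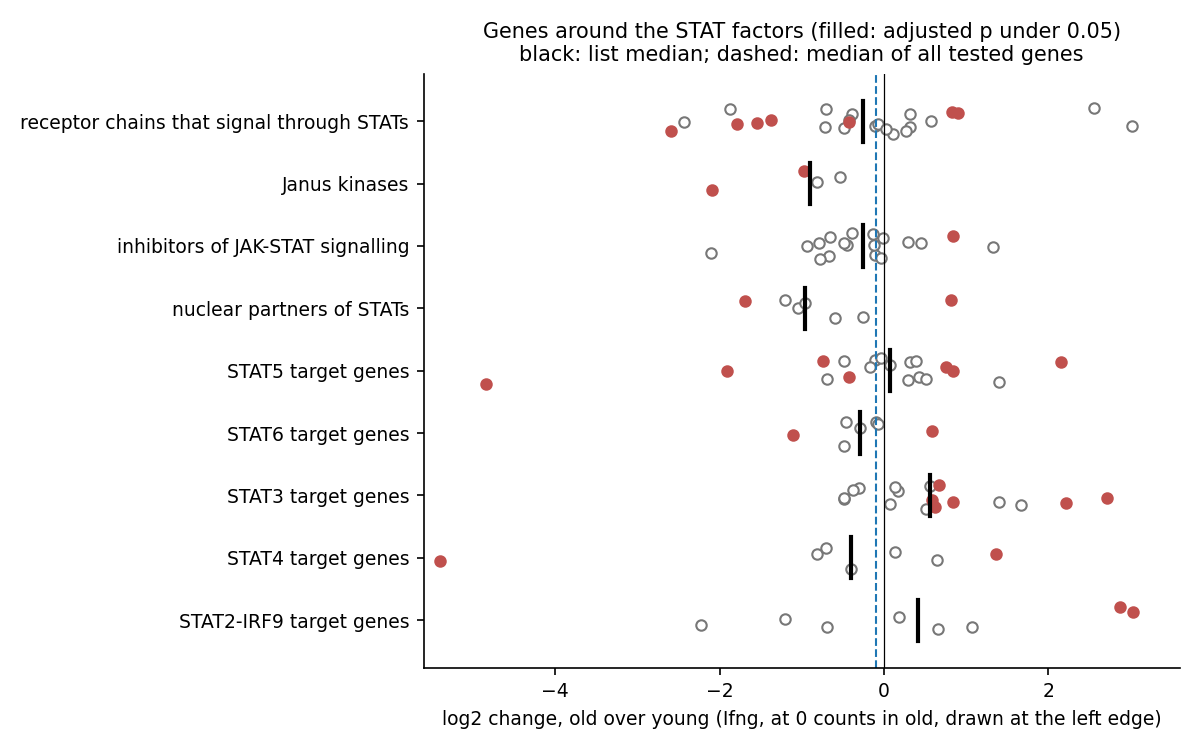
Log2 change in old against young ILC2 of each tested gene on the lists of receptors, Janus kinases, inhibitors, partners and targets, with called genes filled, the list median as a black bar and the median of all tested genes (-0.10) dashed; Ifng, at 0 counts in old ILC2, is drawn at the left edge. With TMM scaling the STAT3 target list has 6 called genes, all higher, with a median of 0.56. With library totals alone 2 are higher and 3 lower, and with length and GC offsets 4 are higher and 1 lower. The Janus kinase list has 2 called genes with TMM scaling, both lower, with a median of -0.90.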

How the data were processed

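The authors deposited raw counts per gene symbol for 6 libraries, whole numbers with no normalization. Per the submitters' processing notes, the aligner STAR 2.5.3a, the build mm10, DESeq2 1.1, Cufflinks 2.0, FastQC 1.0.0 and bcl2fastq 2.20.0.422 were involved. Not given in the sources used here are the counting tool, the annotation and the use of strand, so reads of overlapping genes cannot be told apart. Age groups came from the titles.

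In R 4.3.3, edgeR 4.0.16 kept genes passing filterByExpr (minimum count 10, minimum total 15), scaled by TMM and compared old with young by the quasi-likelihood test over all 11805 genes, with Benjamini-Hochberg adjustment and a threshold of 0.05. Standard errors are the log2 change over the root of the test statistic, and 95% intervals are normal approximations that cover the spread between libraries. The common biological coefficient of variation was 53%. Ratios used 2-sided exact permutation tests over 20 arrangements (SciPy 1.17.1). Alternatives were DESeq2 1.42.0, limma-voom (limma 3.58.1), other scaling, filters and dispersion, length and GC offsets, replicate blocks and leaving out each library. Only the edgeR test, in its main form, with the replicate block and with the offsets, was also run on simulated counts. The outcome of that run is not reported here.

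Of all rows, 98.4% matched GENCODE vM21 (GRCm38) for lengths and positions, and 27 symbols had the form of dates and are not named. Promoters came from RefSeq, and protein sequences were not analysed here. Chi-square statistics of pairs of libraries, divided by their degrees of freedom, were 184 to 348 between groups and 35.8 to 91.9 within groups, so no pair of libraries agreed within counting noise.

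Named genes are the 6 members, up to 4 called genes of each list by smallest p, and the 3 nearest profiles to each member among genes of at least 10 CPM on average, of which 1 is not reported here. Members and lists were chosen with earlier results of these data known.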

Additional observations from a re-analysis of the deposited data

How the results depend on the processing

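Over 17 alternatives the log2 change of Stat5a ran from -1.88 to -1.16 and was called in each, and that of Stat5b from -1.58 to -0.76 with 4 calls lost. Stat2 (-1.18 to -0.47) and Stat6 (-0.65 to -0.06) kept their direction and passed in none. Stat3 (-0.91 to -0.03) passed only with library totals alone. The log2 change of Stat4 was below 0 with library totals alone (-0.39), limma-voom (-0.15), the replicate block (-0.24), the block with length and GC offsets (-0.14), without old library 3 (-0.82) and without young library 2 (-0.24), and it was 0.41 without old library 2. The count of STAT genes called was 2, and 1 with length and GC offsets, also 1 with the replicate block and those offsets, 3 with library totals alone, and 1 to 2 leaving out single libraries. All genes called were 2286, with 1314 to 2141 leaving out single libraries (1314 without young library 1, 1515 without young library 2). Listed pathway genes called were 28, with 14 to 32 (14 without young library 1, 16 without old library 2). Pairs of STAT genes that did not overlap were 3, and 3 to 7 leaving out single libraries (7 without old library 2, 5 without young library 1), where fewer libraries make overlap rarer. The Stat5a to Stat5b log2 ratio differed by -0.23, and by -0.40 to -0.07 leaving out single libraries. The cause of these shifts was not tested.

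The replicate numbers are shared by the groups but nothing in the labels pairs them, and the deviations of same-numbered libraries correlated at only 0.02, 0.009 and 0.041. Young library 2 correlated best with old library 1 (0.012), not with old library 2. With the replicate block 2008 genes and 2 STAT genes were called (Stat5a -1.43, Stat5b -1.20), and the Stat5a to Stat5b difference was -0.23 (exact permutation p = 0.75). Of the 15 pairs, 6 differed in 1 direction in all 3 same-numbered comparisons. That is a looser criterion than groups that do not overlap, and its share over all gene pairs was not computed. The count of 6 therefore says nothing particular about the STAT genes. At 30 to 132 counts a library, Stat2 was the member most limited by depth.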
